A study of Mus musculus with 34 samples.

Results

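The 6 genes described here, Has2, Ptx3, Tnfaip6, Ptgs2, Vcan and Hapln1, make, bind or induce the hyaluronan matrix in which cumulus cells (CCs) become embedded at ovulation. They were chosen by name, each matched 1 entry, and together they were 6 of the 25965 entries of the count table. Their levels were read in 34 RNA sequencing libraries of CCs, the granulosa cells that surround the oocyte, from female C57BL/6J mice after superovulation. Each library came from about 50 cells, which the study's methods count per animal and the labels per cumulus-oocyte complex.

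All mice entered the protocols at 8 weeks of age. In the pharmacological hyperleptinemic model, mice received intraperitoneal injections for 16 days, of saline in 16 C (n = 3) or of recombinant mouse leptin at 100 μg per day in 16 L (n = 5). In diet-induced obesity (DIO), the food was a chow diet (CD, 11% of energy from fat per the labels) or a high-fat diet (HFD, 58%). Feeding lasted 4 weeks (4-week CD, n = 5, and 4-week HFD, n = 5) or for 16 weeks (16-week CD, n = 6, and 16-week HFD, n = 7). A last group of 3 libraries came from mice labelled as low weight gainers on 16 weeks of HFD, and no source used here gives the weight limit that defined them.

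Before ovulation, the luteinizing hormone surge and oocyte-derived factors induce CCs to secrete hyaluronan, a long sugar polymer, and the cell mass expands into a sticky gel. HAS2 is the synthase that extrudes the polymer, TNFAIP6 (TSG-6) transfers heavy chains of the inter-alpha-trypsin inhibitor onto it, and pentraxin PTX3 links those modified chains. Versican (VCAN) is a chondroitin sulfate proteoglycan that binds hyaluronan, and the link protein HAPLN1 stabilizes that bond. PTGS2 (cyclooxygenase-2) makes the prostaglandin precursor that sustains expansion through prostaglandin E2 receptors.

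Total counts ranged from 1104611 to 13207018 per library, and the 6 genes together took 30.9 RPM in the lowest library and 2676 RPM in the highest, RPM being the count scaled to a library total of 1e+06. One library stood apart: 16 L replicate 18 held 30064 RPM of 7 oviduct epithelium markers, almost all of it Ovgp1 (29267 RPM), the oviductal glycoprotein. It also held 9805 RPM of 3 red blood cell genes and 1723 RPM of 10 theca and stroma genes, and its 12 granulosa and cumulus markers summed to 819 RPM. In 16 C the same sums were 19.6 to 71.3 RPM for oviduct, 1.06 to 19.3 RPM for red cells, 0.559 to 2.80 RPM for theca and stroma, and 874 to 1463 RPM for granulosa. Among the other 16 L libraries, replicate 21 had 2318 RPM of oviduct and 2549 RPM of red cell genes and replicates 20 and 23 had 1468 and 399.7 RPM of oviduct genes. Replicates 20 and 23 also had 1678 and 1857 RPM of 10 leukocyte genes, led by the macrophage lysozyme gene Lyz2, whereas 16 C had 97.1 to 514 RPM and no library outside 16 L exceeded 683 RPM. In bulk libraries, fewer cells of a type and less RNA per cell cannot be told apart. Of the 12 granulosa and cumulus markers, Amh was at 0 in 16 libraries, Slc38a3 in 4 and Cyp19a1 in 2, and the others were detected in all 34. Inha and Inhba, which encode inhibin and activin subunits, ranged from 221 to 1038 RPM and from 93.9 to 416 RPM. Inhba (93.9 RPM), Fst (87.8 RPM) and Nr5a2 (7.46 RPM) were lowest in 16 L replicate 18, whereas Cyp19a1 (12.2 RPM) was highest there.

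All 6 genes are protein-coding, at these positions of GRCm38 as the table gives them. Ptgs2 lies on the plus strand of chr1:150100124-150108010, Tnfaip6 on the plus strand of chr2:52038009-52056686 and Ptx3 on the plus strand of chr3:66219887-66225806. Hapln1 (chr13:89540636-89611832, plus strand) and Vcan (chr13:89655312-89742509, minus strand) are neighbours, with 43479 bases between them, and Has2 is on the minus strand of chr15:56665627-56694539. In the GENCODE M21 annotation an antisense gene, Has2os, overlaps Has2, Veph1 overlaps Ptx3 on the other strand, Gm16318 and Gm4117 overlap Vcan likewise, and Gm8546 overlaps Hapln1. Tnfaip6 and Ptgs2 had no overlapping gene. Smart-seq2 does not mark strand, so reads of such overlaps cannot be told apart.

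The upstream sequences of the 4 more abundant genes, for which RefSeq (GRCm38.p6) gives a start site, are shown. Whether these sequences bear on the levels below was not tested. Each is printed 5′ to 3′ on the gene's strand and stops before the first base of either gene model. Capitals mark matches, on either strand, to the CCAAT/enhancer-binding protein (C/EBP) site TTGCNNAA, the AP-1 site TGANTCA or the GC box GGGCGG, none of which overlap each other, and positions count from the RefSeq start.
Tnfaip6, chr2:52037863-52038008, plus strand: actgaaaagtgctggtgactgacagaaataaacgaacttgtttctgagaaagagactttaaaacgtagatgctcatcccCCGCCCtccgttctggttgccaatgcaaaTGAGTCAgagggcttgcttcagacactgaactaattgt
Ptgs2, chr1:150099781-150100030, plus strand: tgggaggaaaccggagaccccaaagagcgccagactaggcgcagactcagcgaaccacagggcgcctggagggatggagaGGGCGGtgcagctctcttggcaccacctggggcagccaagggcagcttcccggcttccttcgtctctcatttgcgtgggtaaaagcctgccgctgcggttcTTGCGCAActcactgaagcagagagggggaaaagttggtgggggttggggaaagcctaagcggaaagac
Ptx3, chr3:66219637-66219886, plus strand: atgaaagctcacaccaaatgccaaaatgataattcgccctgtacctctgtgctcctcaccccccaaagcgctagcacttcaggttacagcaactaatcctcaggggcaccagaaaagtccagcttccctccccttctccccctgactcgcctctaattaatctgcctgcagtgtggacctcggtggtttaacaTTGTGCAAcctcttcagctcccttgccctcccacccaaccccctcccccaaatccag
Vcan, chr13:89742513-89742762, minus strand: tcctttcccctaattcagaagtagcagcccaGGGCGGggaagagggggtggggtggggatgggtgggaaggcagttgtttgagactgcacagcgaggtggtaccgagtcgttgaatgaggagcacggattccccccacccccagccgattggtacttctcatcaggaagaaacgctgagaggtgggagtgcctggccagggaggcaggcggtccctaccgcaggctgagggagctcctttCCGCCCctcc

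Hapln1 also had an entry in the RefSeq table and Has2 had none, so 5 of the 6 genes were searched over the 250 bases before the RefSeq start. The C/EBP site was found in Ptgs2, 69 bases upstream, and in Ptx3, 57 bases upstream, and 9.56% of all 32851 such windows held it. The AP-1 site was found in Tnfaip6 alone of the 5, 142 bases upstream, against 6.75% of all windows. The GC box was found in Tnfaip6, Ptgs2 and Vcan, against 32.7%. The cyclic AMP response half-site TGACG (17.8% of windows), the E-box CACGTG (6.02%) and the TATA box TATAAA (12.4%) were in none of the 5 windows. Past its RefSeq start, Ptgs2 held TGACG on the opposite strand from base 14 and CACGTG from base 17, and these 2 matches overlap. The count table starts Ptgs2 later, at 150100124, so both matches lie upstream of that start. Hapln1 held TGACG from base 29 past its RefSeq start, and its window lies inside the GENCODE gene, which starts at 89539796. Tnfaip6 starts earlier in the count table and in GENCODE, at 52038009, so its AP-1 site lies closer to that start. A match describes the letters and does not show that a factor binds there.

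Tnfaip6, Vcan, Ptgs2 and Ptx3 were abundant transcripts in CCs, whereas Has2 and Hapln1 were close to the detection limit. Over the 34 libraries Tnfaip6 ranged from 1.64 to 2078 RPM with a median of 544, and Vcan from 28.9 to 1084 RPM with a median of 568.3. Ptgs2 ranged from 0.298 to 473 RPM (median 106) and Ptx3 from 0 to 178 RPM (median 35.9). Has2 did not exceed 18.6 RPM (median 2.12), with 611 reads in all, and was at 0 in 3 libraries. Hapln1 did not exceed 5.06 RPM (median 1.61), with 294 reads in all, and was at 0 in 5 libraries. Per length of the merged exons, as RPM per kilobase, the median level was 318 for Tnfaip6, 39.3 for Vcan, 23.1 for Ptgs2, 13.4 for Ptx3, 0.501 for Has2 and 0.273 for Hapln1. On this scale Tnfaip6 was the highest of the 6 genes in 33 of 34 libraries. Counts came from oligo-dT-primed cDNA amplified without molecular identifiers, so the limits given for counts of 0 cover counting error only.

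**Figure D1:**
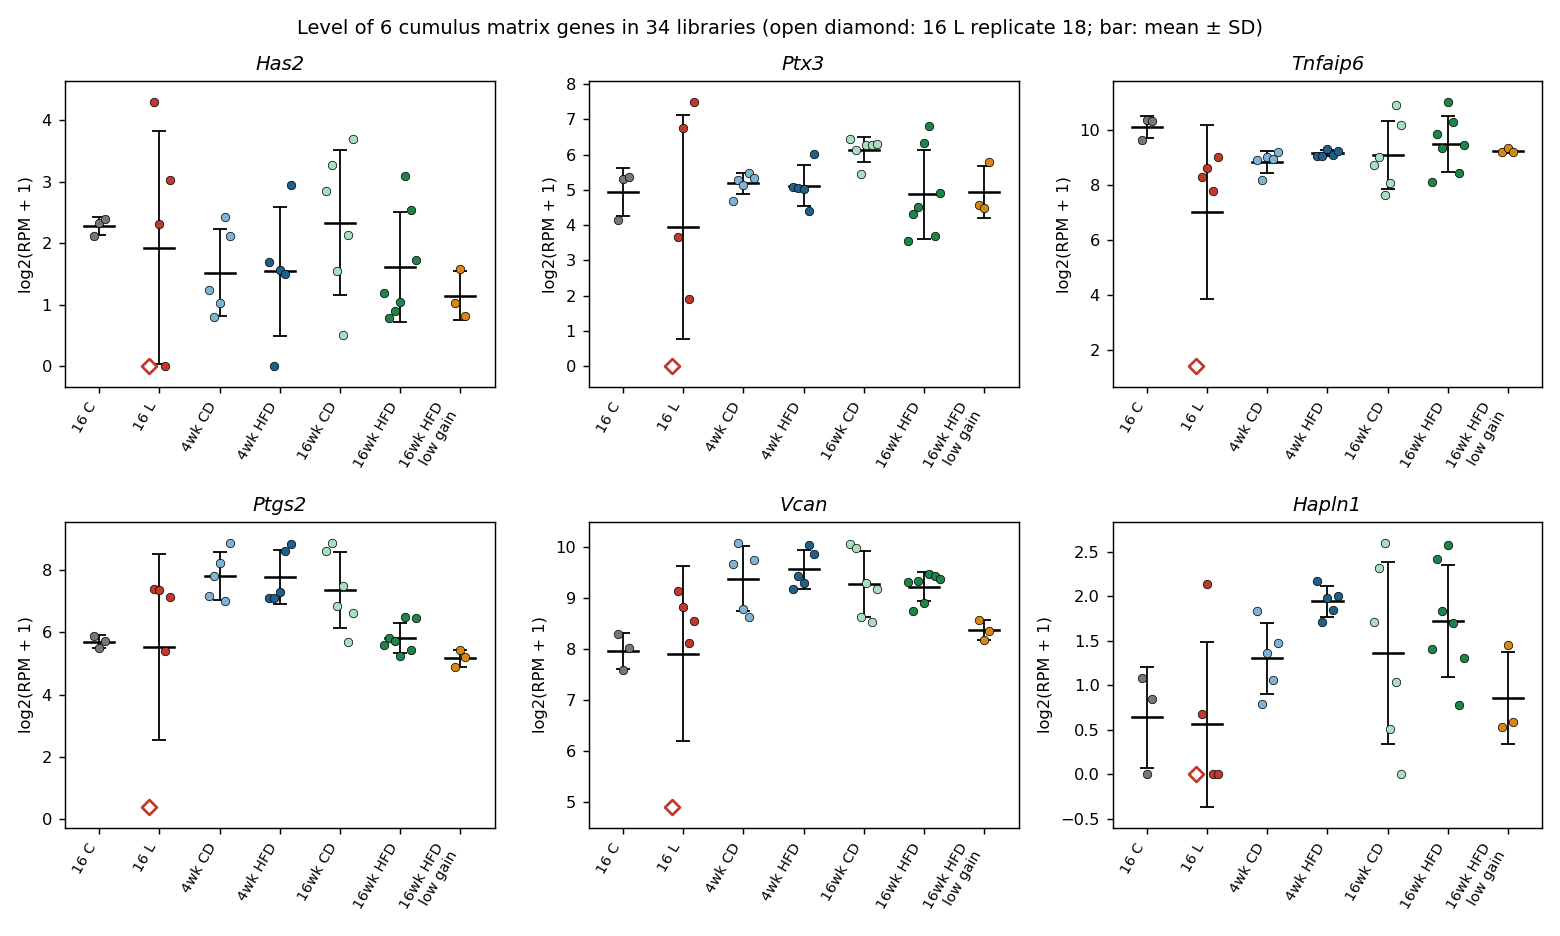
Level of each gene as log2(RPM + 1) in all 34 libraries, by group, with bars for the mean ± SD. The open diamond is 16 L replicate 18, which sits lowest or joint lowest in all 6 panels. Tnfaip6 in 16 C lies above every 16 L library, and Ptgs2 in the low weight gainers lies below every 16-week CD library.

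The order of the group means differed between the genes. Tnfaip6 was highest in 16 C (1141 RPM ± 292, SD, n = 3) and lowest in 16 L (290 RPM ± 195, n = 5, and 362 ± 128 without replicate 18). Ptgs2 was highest in 4-week HFD and 4-week CD (258 ± 158 and 254 ± 139 RPM, n = 5 each) and lowest in the low weight gainers (35.5 ± 6.76 RPM, n = 3). Vcan was highest in the 2 groups on 4 weeks of diet (776 ± 209 RPM on HFD and 719 ± 292 RPM on CD) and lowest in 16 C (254 ± 59.5 RPM). Ptx3 was highest in 16-week CD (70.9 ± 14.8 RPM, n = 6) and lowest in 16 C (31.6 ± 12.9 RPM). Has2 means ran from 1.27 ± 0.650 RPM in the low weight gainers to 5.93 ± 7.67 RPM in 16 L, and Hapln1 means from 0.638 ± 0.575 RPM in 16 C to 2.87 ± 0.465 RPM in 4-week HFD. Of neighbouring groups in these orders, only Ptgs2 in 16 C, the next above the low weight gainers, was separated without overlap, and all other neighbours overlapped in their libraries.

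The comparison of 16 L with 16 C asked how leptin injections altered the CC transcriptome. Tnfaip6, whose protein builds heavy chains into the matrix, was at 804, 1317 and 1301 RPM in the 3 saline libraries. In the leptin libraries it was at 1.64 (replicate 18), 316 (replicate 19), 391 (replicate 20), 218 (replicate 21) and 521 RPM (replicate 23). All 5 leptin libraries were below all 3 saline libraries, which also held without replicate 18 and on the TMM scale. In the RPM of all genes tested, 31.3% did not overlap between these groups. The fitted log2 fold change was -2.92 (SE 1.01, 95% interval -5.18 to -0.65), which missed the threshold (adjusted p = 0.0904, edgeR quasi-likelihood test). Without replicate 18 it was -2.68 and passed (adjusted p = 0.000544). It also passed with DESeq2 (adjusted p = 0.0135), limma-voom (adjusted p = 0.000846) and in a fit of all 34 libraries (adjusted p = 0.00595). Many genes passed in these settings. They were 4635 of 11077 without replicate 18, 2628 of 11723 with DESeq2, 7474 of 11723 with limma-voom and 4384 of 13236 in the fit of all 34 libraries. Leaving out any other single library gave values from -3.19 to -2.72, none past the threshold, with adjusted p from 0.113 to 0.232.

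No other member passed the threshold in 16 L, so 0 of the 5 fitted members were called, against 8.56% of all genes tested. Ptgs2 was at 58.7, 43.9 and 51.7 RPM in saline, and at 0.298, 168, 165, 41.6 and 140 RPM in leptin replicates 18, 19, 20, 21 and 23. Replicates 19, 20 and 23 were above all saline libraries and replicates 18 and 21 below them, and the fitted change was 0.10 (95% interval -2.26 to 2.47). Ptx3 was at 16.8, 38.3 and 39.8 RPM in saline, and at 0, 11.6, 107, 2.72 and 178 RPM in the same leptin libraries. Its leptin libraries lay on both sides of saline, the 2 above it, replicates 20 and 23, being those with 1678 and 1857 RPM of leukocyte genes, whose part in these levels was not tested. Its fitted change was -0.07 (95% interval -3.19 to 3.06). Vcan was at 311, 192 and 258 RPM in saline, and at 28.9, 562, 449.7, 279 and 377 RPM in leptin. Its fitted change was -0.46 (95% interval -1.88 to 0.96). Has2 was at 3.35, 4.01 and 4.24 RPM in saline, and at 0, 18.6, 3.96, 0 and 7.14 RPM in leptin (fitted change -0.22, 95% interval -2.99 to 2.55). The 2 zeros, in replicates 18 and 21, allow up to 0.447 and 2.72 RPM. TMM factors computed over all 34 libraries did not overlap between the groups, from 0.640 to 0.737 in 16 C and from 0.894 to 1.32 in 16 L. The fold changes used factors computed anew on the libraries of this comparison, which are not given here. TMM scaling left the median of all genes at 0.27, and with library totals in its place the changes of Has2, Ptx3 and Vcan turned positive (0.67, 0.91 and 0.42). Hapln1 failed the filter on low counts, with 5 reads in saline and 11 in leptin, and its mean log2(RPM + 1) differed by -0.08 (exact two-sided permutation test, p = 0.929, smallest possible 0.0179). Whether the oviduct, red cell and stroma transcripts in replicates 18 and 21, or the oviduct and leukocyte transcripts in replicates 20 and 23, have a part in these values was not tested. With replicates 18 and 21 left out, which keeps replicates 20 and 23 as 2 of the 3 leptin libraries, 2 of 5 members were called. These were Tnfaip6 at -2.37 (adjusted p = 0.00159, edgeR) and Ptgs2 at 0.74 (adjusted p = 0.0456, edgeR), and 4145 of all 10959 genes were called in the same fit. This setting was chosen after seeing the data. It leaves out the 2 leptin libraries in which Ptgs2 lay below saline, so the Ptgs2 call follows in part from that choice.

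**Figure D2:**
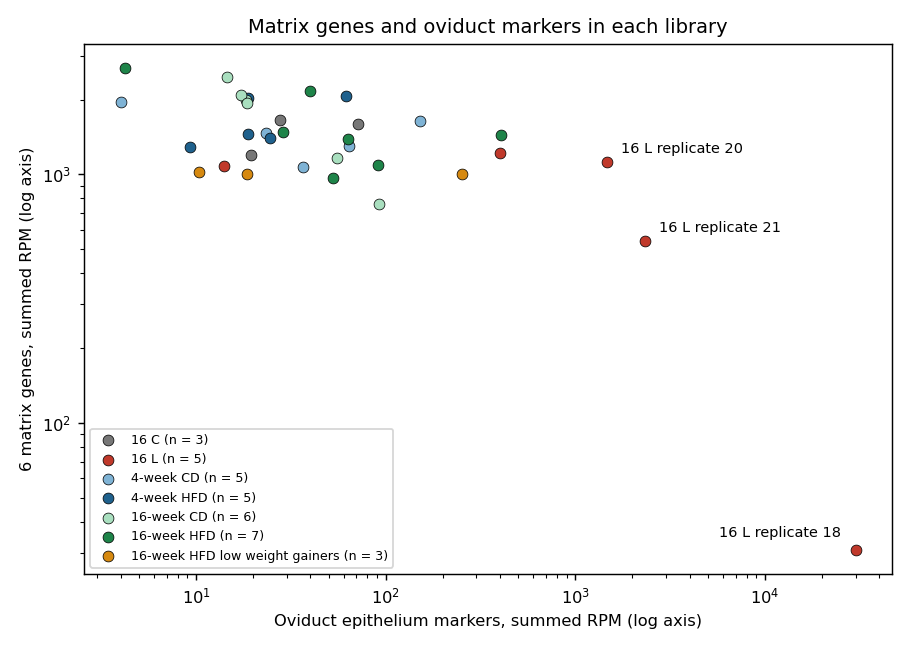
Summed RPM of the 6 genes against summed RPM of 7 oviduct epithelium markers in each of 34 libraries, on log axes, coloured by group. 16 L replicate 18 is at 30.9 RPM of matrix genes and 30064 RPM of oviduct markers, and 16 L replicates 20 and 21 have the next highest oviduct sums.

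The pathway around the 6 genes was followed in a list of 81 genes of hyaluronan and chondroitin sulfate metabolism, heavy chain donors, versican proteases, prostaglandin handling and expansion inducers, of which 56 were fitted in 16 L. Of these, 3 rose and 2 fell, which is 8.93% beside 8.56% of all genes, and the median log2 change was -0.003 beside 0.27 over all genes. Chsy1, a chondroitin synthase, fell from 692 ± 221 to 89.5 ± 45.2 RPM (log2 -3.66, adjusted p = 0.0142). B4galt7, which builds the linker of chondroitin chains, fell from 69.3 ± 14.6 to 34.6 ± 13.7 RPM (log2 -1.80, adjusted p = 0.0404). Ptger1, a prostaglandin E2 receptor, rose from 3.47 ± 0.609 to 40.3 ± 27.3 RPM (log2 2.57, adjusted p = 0.0463), and Slco2a1, a prostaglandin transporter, from 2.72 ± 0.926 to 24.99 ± 11.6 RPM (log2 2.35, adjusted p = 0.0315). Mapk3, which encodes the kinase ERK1, rose from 9.77 ± 1.26 to 60.1 ± 19.5 RPM (log2 1.81, adjusted p = 0.0263). The number of list genes called was 25 of 56 without replicate 18, beside 4635 of 11077 over all genes. Without replicates 18 and 21 it was 24 of 56, beside 4145 of 10959. The list count was 0 without any single saline library or without leptin replicate 20 or 23, and 1 and 8 without leptin replicates 21 and 19.

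The 4-week comparison asked how early DIO altered CCs. No member passed the threshold (0 of the 5 fitted, against 4.26% of all genes), and none of the 6 was free of overlap between HFD and CD (6.86% of genes were). Tnfaip6 was at 478, 287, 516, 494 and 583 RPM on CD and at 534, 539, 639, 549 and 609.8 RPM on HFD, so that 2 HFD libraries exceeded all CD libraries. Its fitted change was 0.40 (SE 0.24, 95% interval -0.10 to 0.90, adjusted p = 0.304). Hapln1 was at 2.57, 0.734, 1.57, 1.09 and 1.78 RPM on CD and at 3.51, 2.28, 2.95, 2.59 and 3.01 RPM on HFD, so that 4 of 5 HFD libraries exceeded all CD libraries. With only 34 and 108 reads in all, its fitted change was 0.84 (95% interval -0.05 to 1.72, adjusted p = 0.228).

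Ptgs2 at 4 weeks was at 144, 227, 301, 127 and 469 RPM on CD and at 137, 137, 156, 398 and 460.0 RPM on HFD (fitted change 0.17, 95% interval -0.73 to 1.08). High and low Ptgs2 libraries occurred on both diets, and the ranges overlapped almost fully. Vcan was at 816, 1084, 442, 396 and 854 RPM on CD and at 575, 689, 628, 1059 and 933 RPM on HFD (fitted change 0.20, 95% interval -0.50 to 0.91). Ptx3 was at 24.8, 37.4, 34.3, 43.1 and 39.7 RPM on CD and at 32.8, 32.4, 31.2, 20.0 and 63.6 RPM on HFD (fitted change 0.16, 95% interval -0.47 to 0.78). Has2 ranged from 0.734 to 4.37 RPM on CD and from 0 to 6.72 RPM on HFD and failed the filter (difference 0.02 in mean log2(RPM + 1), exact two-sided permutation test, p = 0.968, smallest possible 0.00397). In the pathway list, 1 gene rose and 2 fell of 57, or 5.26%, with a median of -0.06 beside -0.01 over all genes. Hpgd, which breaks down prostaglandins, rose from 4.52 ± 1.71 to 15.6 ± 7.65 RPM (log2 1.87, adjusted p = 0.0216). Has3, another hyaluronan synthase, fell from 21.0 ± 7.12 to 7.25 ± 0.983 RPM (log2 -1.41, adjusted p = 0.0253), and Adamts9, a versican-cleaving protease, from 135 ± 49.6 to 47.1 ± 22.7 RPM (log2 -1.37, adjusted p = 0.0401). The list count ranged from 0 to 9 when single libraries were left out, and was 0 without 4-week CD replicate 2 or 8 or 4-week HFD replicate 3 or 5.

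The 16-week comparison asked the same of established DIO, and Ptgs2 was the member whose levels differed most. In 16-week CD it ranged from 50.4 to 473 RPM (median 147), and in 16-week HFD from 36.4 to 88.7 RPM (median 52.4). Of the 7 HFD libraries, 3 were below all CD libraries and none was above them all, and the groups overlapped. The fitted log2 change was -1.41 (SE 0.36, 95% interval -2.17 to -0.64), which missed the threshold (adjusted p = 0.0654, edgeR), so that 0 of the 5 fitted members were called, against 0.0276% of all genes. Ptgs2 passed with DESeq2 (-1.37, adjusted p = 0.0104), with library totals (-1.91, adjusted p = 0.0311), and without 16-week CD replicate 9 or 13 (adjusted p = 0.0134 and 0.0441). Of all 10861 genes, DESeq2 called 1056 and library totals 1646. Without replicate 9 or 13, 2222 of 10830 and 473 of 11017 genes were called. The 2 highest CD libraries were replicates 1 (395 RPM) and 2 (473 RPM). In the scaling over all 34 libraries they had TMM factors of 1.37 and 1.33, and 14634 and 15150 genes were detected. The other 4 CD libraries had factors from 0.761 to 0.989 and 12979 to 14131 genes. Without CD replicates 1 and 2 the change in Ptgs2 was -0.68 (adjusted p = 0.488). This exclusion was chosen after seeing the data and removes the highest CD values, so a smaller fall follows from the choice.

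Vcan at 16 weeks ranged from 370.0 to 1073 RPM on CD (median 605) and from 431 to 710 RPM on HFD (median 647), the HFD range lying within the CD range. Its fitted change was 0.24 (95% interval -0.25 to 0.73), and -0.16 with library totals. Ptx3 ranged from 42.6 to 85.1 RPM on CD (median 76.0) and from 10.6 to 111 RPM on HFD (median 21.9). Of the HFD libraries, 5 of 7 were below all CD libraries while 1 was above them all, and the fitted change was -0.50 (95% interval -1.54 to 0.54, adjusted p = 0.522). Tnfaip6 varied widely on either diet, from 199.5 to 1955 RPM on CD (median 469.8) and from 276 to 2078 RPM on HFD (median 701), with a fitted change of 0.45 (95% interval -0.85 to 1.74). Has2 ranged from 0.425 to 12.0 RPM on CD (median 4.78) and from 0.723 to 7.52 RPM on HFD (median 1.28), with a fitted change of -0.79 (95% interval -2.11 to 0.54). Hapln1 failed the filter, with medians of 1.67 and 2.26 RPM (difference 0.36 in mean log2(RPM + 1), exact two-sided permutation test, p = 0.456). None of the 6 genes was free of overlap, against 0.875% of all genes, and 0 of 55 pathway genes were called. Of these 55 genes 21 had an unadjusted p under 0.05, and DESeq2 called 10 and limma-voom 0.

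The low weight gainers were compared with 16-week HFD to ask what set mice with less weight on the same diet apart, and here Vcan and Ptgs2 fell. Vcan was at 378, 289 and 328 RPM in the low weight gainers and from 431 to 710 RPM (median 647) in 16-week HFD. All 3 libraries were below all 7 HFD libraries, and Vcan was the 1 member of 6 without overlap, against 18.5% of genes. Its log2 fold change was -1.04 (SE 0.22, 95% interval -1.51 to -0.57, adjusted p = 0.00491). Ptgs2 was at 28.5, 42.0 and 35.9 RPM in the low weight gainers and from 36.4 to 88.7 RPM (median 52.4) in 16-week HFD, with 2 of 3 libraries below all HFD libraries. Its log2 fold change was -0.89 (SE 0.29, 95% interval -1.51 to -0.28, adjusted p = 0.0388). These were 2 of the 5 fitted members, against 20.7% of all genes tested. Of the cell type markers, 1 rose and 2 fell of 10 granulosa genes and 1 rose of 9 leukocyte genes, and their part in these values was not tested.

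Vcan passed the threshold without any single library of either group (-1.13 to -0.97). Ptgs2 lost it without 16-week HFD replicate 10, 14 or 16 or without low weight gainer replicate 21 or 23 (-0.85 to -0.74). In a fit of all 34 libraries, whose spread comes from all groups, neither passed (adjusted p = 0.189 for Vcan and 0.539 for Ptgs2), and with library totals Ptgs2 did not (-0.72, adjusted p = 0.0789).

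**Figure D3:**
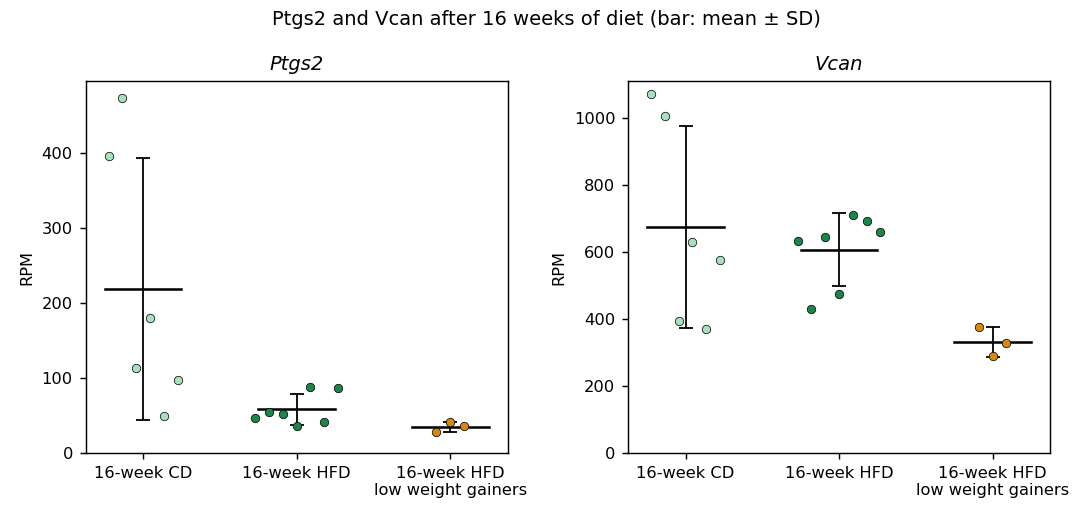
RPM of Ptgs2 and Vcan in each library after 16 weeks of CD, of HFD, and of HFD in low weight gainers, with bars for the mean ± SD. The low weight gainers lie between 28.5 and 42.0 RPM for Ptgs2 and between 289 and 378 RPM for Vcan, while 16-week CD spreads from 50.4 to 473 and from 370.0 to 1073 RPM.

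The other members did not pass in this comparison. Tnfaip6 was closely matched among the low weight gainers, at 588, 645 and 584 RPM, inside the HFD range of 276 to 2078 RPM (fitted change -0.81, 95% interval -2.07 to 0.45). Ptx3 was at 22.8, 21.2 and 54.4 RPM, inside the HFD range of 10.6 to 111 RPM (fitted change -0.50, 95% interval -2.37 to 1.37). Hapln1 was at 0.445, 1.75 and 0.506 RPM, with 2 of 3 libraries below all HFD libraries, and 12 reads in all (fitted change -1.72, 95% interval -3.28 to -0.17, adjusted p = 0.103). Has2 was at 1.04, 2.00 and 0.759 RPM, with 18 reads, and failed the filter (difference -0.47 in mean log2(RPM + 1), exact two-sided permutation test, p = 0.425, smallest possible 0.00833).

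In the pathway list, 6 genes rose and 7 fell of 55 between the low weight gainers and 16-week HFD, or 23.6% beside 20.7% of all genes, with a median of -0.16 beside -0.03. Among inducers and mediators, Smad4, the common mediator of the transforming growth factor β family, fell from 85.3 ± 6.53 to 46.6 ± 4.82 RPM (log2 -1.04, adjusted p = 0.00224). Bmpr2, the receptor of the oocyte factors GDF9 and BMP15, fell from 15.8 ± 5.79 to 5.10 ± 1.42 RPM (log2 -1.76, adjusted p = 0.00312). Cebpb, a transcription factor of the ovulatory response, rose from 27.9 ± 11.4 to 119 ± 90.8 RPM (log2 1.88, adjusted p = 0.00584), and Mapk3 rose by 1.26 on the log2 scale (adjusted p = 0.00599). In hyaluronan precursor synthesis the enzymes of the same step went opposite ways, Gfpt2 rising from 69.6 ± 31.1 to 199 ± 73.0 RPM (log2 1.34, adjusted p = 0.0114) and Gfpt1 falling from 49.5 ± 6.87 to 32.1 ± 2.39 RPM (log2 -0.80, adjusted p = 0.00981). The sulfotransferase Chst12 rose by 1.66 on the log2 scale (adjusted p = 0.00598). The matrix glycoprotein gene Thbs1 fell by 0.92 (adjusted p = 0.0165), Adamts9 by 0.95 (adjusted p = 0.0230) and the hyaluronan receptor gene Hmmr by 0.80 (adjusted p = 0.0273). The list count was 7 without low weight gainer replicate 21, 3 without low weight gainer replicate 23, and 4 in the fit of all 34 libraries.

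Against 16-week CD, which shares the low weight gainers with the comparison above, no member passed the threshold (0 of the 5 fitted, beside 0.00861% of all genes, or 1 gene of 11620). Ptgs2 was the member furthest from CD, at 28.5, 42.0 and 35.9 RPM beside a CD range of 50.4 to 473 RPM. All 3 libraries were below all 6 CD libraries, and 6.93% of genes did not overlap. Its fitted change was -2.26 (SE 0.55, 95% interval -3.45 to -1.07, adjusted p = 0.257), and it passed with DESeq2 (adjusted p = 0.00311) and limma-voom (adjusted p = 0.0159). Without 16-week CD replicates 1 and 2, the CD libraries highest in Ptgs2, the change was -1.58 (adjusted p = 0.104). Of all 11620 genes, DESeq2 called 245 and limma-voom 214. Vcan and Ptx3 each had 2 of 3 libraries below all CD libraries, with fitted changes of -0.77 (95% interval -1.49 to -0.05, adjusted p = 0.420) and -0.99 (95% interval -1.79 to -0.19, adjusted p = 0.365). Ptx3 was the other member called with limma-voom (-1.32, adjusted p = 0.0324), and Vcan was not (adjusted p = 0.119). Has2 (-1.83, 95% interval -3.67 to -0.002) and Tnfaip6 (-0.32, 95% interval -1.97 to 1.33) overlapped with CD. Hapln1 failed the filter (difference -0.50 in mean log2(RPM + 1), exact two-sided permutation test, p = 0.452, smallest possible 0.0119). In the pathway list 0 of 57 genes were called by edgeR, 7 had an unadjusted p under 0.05, DESeq2 called 3 and limma-voom 1.

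**Figure D4:**
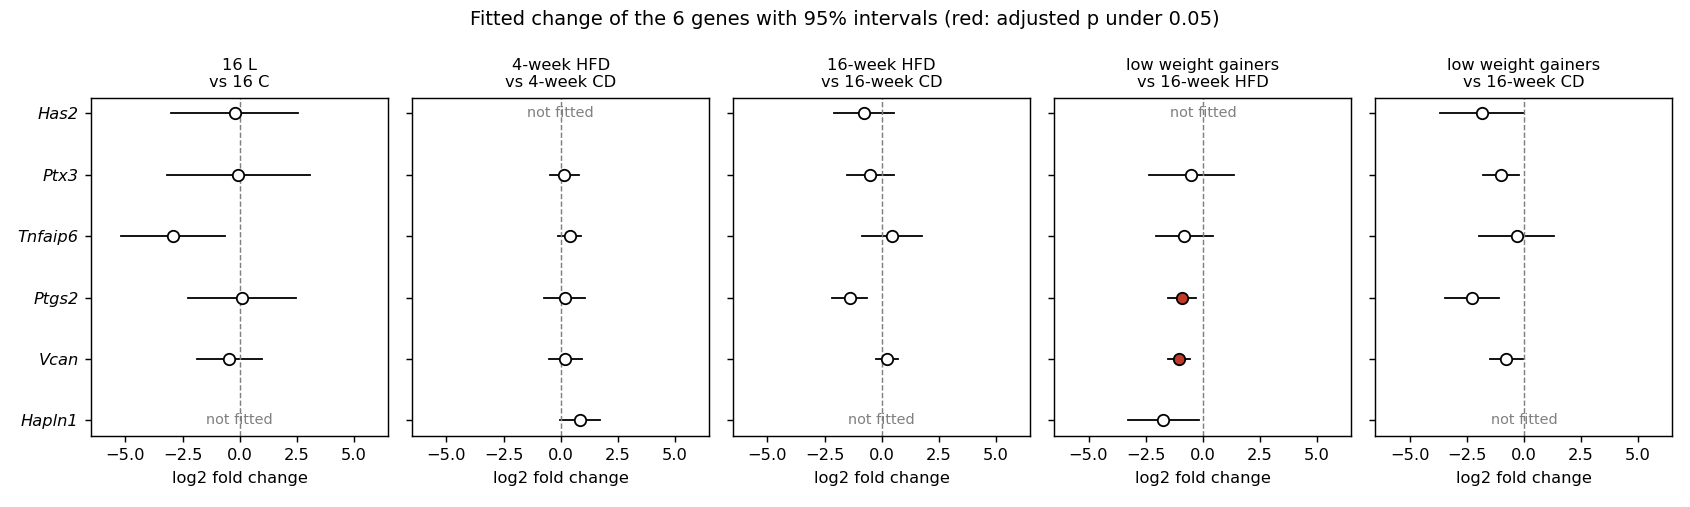
Fitted log2 fold change of each gene with its 95% interval in 5 comparisons, red where the adjusted p passed the threshold. Vcan (-1.04) and Ptgs2 (-0.89) in the low weight gainers against 16-week HFD are the only red points, and 7 other intervals exclude 0 without passing it: Tnfaip6 in 16 L, Ptgs2 in 16-week HFD, Hapln1 in the low weight gainers against 16-week HFD, and Has2, Ptx3, Ptgs2 and Vcan in the low weight gainers against 16-week CD.

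The effects themselves were then compared between experiments, each with its own controls. The leptin effect on Tnfaip6 was lower than the 4-week diet effect (fitted difference -3.39 on the log2 scale, SE 0.96, 95% interval -5.39 to -1.40, adjusted p = 0.0147), and the difference was -3.07 without 16 L replicate 18 (adjusted p = 1.12e-05). Without that library 5542 of 12739 genes were called. In RPM, Tnfaip6 was at 290 ± 195 in 16 L and 1141 ± 292 in 16 C, beside 574 ± 47.4 in 4-week HFD and 472 ± 111 in 4-week CD. Tnfaip6 was the 1 called member of 6, against 27.2% of all genes, and it missed the threshold with library totals (-2.26, adjusted p = 0.0604). The diet effect at 16 weeks minus that at 4 weeks passed for 0 of 6 members, against 3.66% of all genes. The largest difference there was that of Ptgs2, at -1.41 (95% interval -2.55 to -0.26, adjusted p = 0.130). It was -0.84 without 16-week CD replicates 1 and 2, the CD libraries highest in Ptgs2. Of the pathway list, 12 genes were higher and 5 lower of 60 in the first contrast, with a median of 0.14 beside 0.28, and 1 higher and 3 lower of 58 in the second, with a median of -0.20 beside -0.09. Has3 (3.38, adjusted p = 0.00157), Mapk3 (2.71, adjusted p = 0.00140) and Ptger1 (3.27, adjusted p = 0.00646) were higher, and Chsy1 (-3.20, adjusted p = 0.00261) lower, in the leptin effect than in the diet effect.

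Over the 34 libraries the members varied together in part, on log2 CPM with TMM scaling. The closest pairs were Ptgs2 with Vcan (r = 0.78) and Ptx3 with Tnfaip6 (r = 0.76), and Tnfaip6 with Ptgs2 had r = 0.50. Without 16 L replicate 18 (n = 33) these pairs had r = 0.47 and 0.49, and Tnfaip6 with Ptgs2 was at r = -0.29. Within the 10 libraries of the 4-week diets, Ptgs2 with Vcan had r = 0.55 and Ptx3 with Tnfaip6 r = 0.11, and within the 16 libraries of the 16-week diets r = 0.49 and 0.46. The closest pair within the 4-week diets was Tnfaip6 with Hapln1 (r = 0.86), which had r = 0.14 within the 16-week diets. Vcan and Hapln1, neighbours on chromosome 13, had r = 0.51, and 0.44 without replicate 18. With group means removed their r was 0.15, and 0.016 without replicate 18. Within the 4-week and 16-week diet libraries it was 0.29 and 0.13. Hapln1 had at most 3 reads in 14 libraries. These values describe libraries that share scaling and groups and differ in depth, and no test was made of them.

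**Figure D5:**
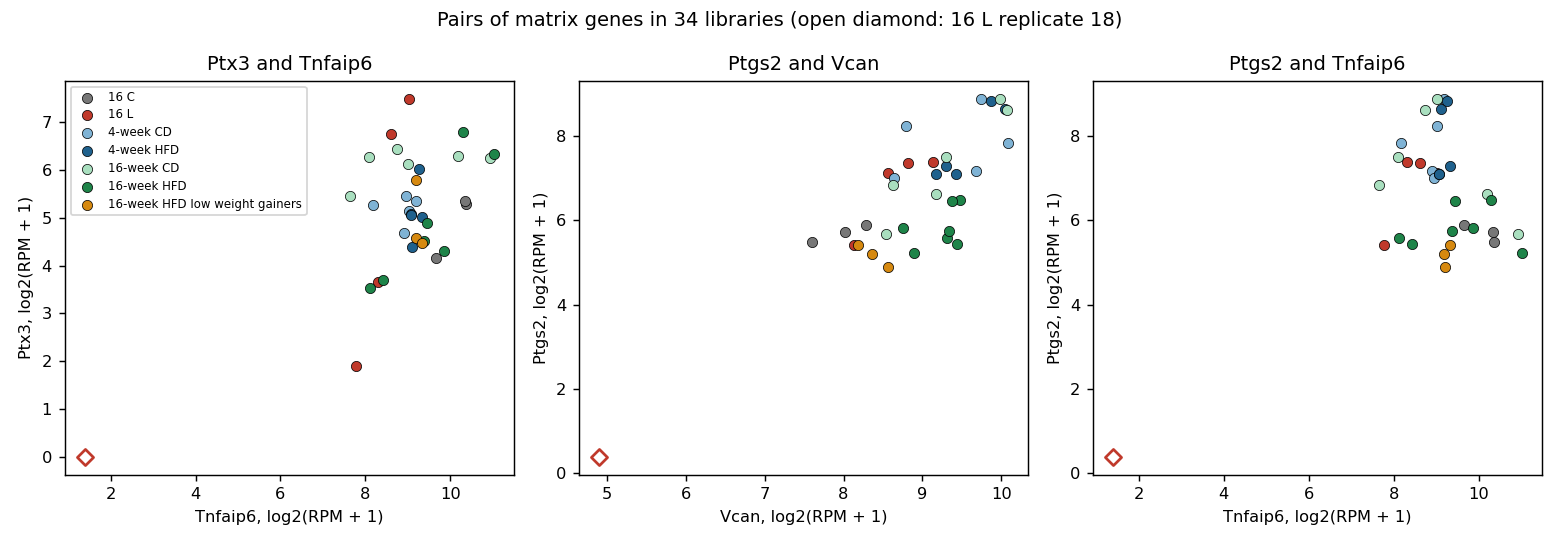
Ptx3 against Tnfaip6, Ptgs2 against Vcan, and Ptgs2 against Tnfaip6, each as log2(RPM + 1) in 34 libraries coloured by group. The open diamond, 16 L replicate 18, is at the lower left of each panel, apart from the other 33 libraries.

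The genes whose pattern was most like each member, by Pearson's r over the same libraries, are given with and without 16 L replicate 18. One gene stayed among the nearest 3 for Has2 (4933413J09Rik), Ptx3 (Fst) and Ptgs2 (Pign), and none did for Tnfaip6, Vcan and Hapln1. For Tnfaip6 they were Ncoa7 (r = 0.89), Pik3r1 (0.87) and Mkx (0.85), and without replicate 18 they were Deb1 (0.90), Spry2 (0.90) and Abhd2 (0.89). For Ptgs2 they were Pign (0.92), Tnc (0.90) and Ephx2 (0.90), then Atl3 (0.81), Pign (0.80) and Spty2d1 (0.80). For Vcan they were Lrrk2 (0.90), Pcdh7 (0.89) and Prkd3 (0.88), then Vldlr (0.78), Mastl (0.74) and Ate1 (0.73). For Ptx3 they were Atp6v0d2 (0.77), Fst (0.77) and Asgr1 (0.76), then Spin2 (0.74), Fst (0.68) and Zpld1 (0.68). The nearest to Has2 was 4933413J09Rik (0.69, and 0.67 without replicate 18), followed by Pdk4 (0.69) and Lass6 (0.67), then by Tmsb15b2 (0.65) and Tmsb15l (0.64). The nearest to Hapln1 were Lgr5 (0.62), Gas2 (0.62) and Tmprss11e (0.61), on few reads, then 1810062O18Rik (0.62), Acot4 (0.58) and Prim2 (0.58).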

How the data were processed

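Libraries were made with Smart-seq2 from about 50 CCs each. The authors deposited raw counts of reads per gene, not normalized, and per the submitters' processing notes the tools included Trim Galore 0.4.2 and HISAT2 2.0.5 with the GRCm38 build. The counting program, its annotation and its use of strand are not given in the sources used here. Samples were grouped by their labels. Total counts ranged from 1104611 to 13207018 per library, so genes at a few RPM rest on few reads.

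Counts were fitted in edgeR 4.0.16 (R 4.3.3) by the quasi-likelihood test with TMM factors, filterByExpr and Benjamini-Hochberg adjustment over all genes tested, at a threshold of 0.05, on the groups of each comparison. Members that failed the filter were compared by exact two-sided permutation tests on log2(RPM + 1). DESeq2 1.42.0, limma 3.58.1 (voom with sample weights), other scalings and filters, a fit of all 34 libraries and left-out libraries were alternatives, and those leaving out 2 libraries, or 16 L replicate 18 from the contrast of effects, were chosen after seeing the data. Among 72 pairs of libraries within groups, 0 held identical counts. p-values measure the spread between these samples. The fits were tested on simulated data that held no library with transcripts of other cell types. That test therefore does not show how the fits behave with such a library. The genes and lists were chosen with earlier results of these data known. The genes named from the pathway list were the called ones with the lowest adjusted p, at most 10 in each comparison.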

Additional observations from a re-analysis of the deposited data

Results flagged for a closer look

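Of 65 sets of values from groups of 5 to 7 libraries, 9 held a library far from the others by Dixon's criterion. Chance meets it in about 1 of 20 sets of normally distributed values, a rate that need not hold for the untransformed RPM used here. Among the 6 genes this was Hapln1 in 16 L replicate 20, at 3.39 RPM on 6 reads, beside 0 to 0.603 RPM in the other 16 L libraries. The count of 0 in replicate 21 allows up to 2.72 RPM. The other 8 were sums of cell type markers. 16 L replicate 18 stood apart in oviduct epithelium markers (30064 RPM beside 14.1 to 2318), red blood cell genes (9805 RPM beside 3.74 to 2549) and theca and stroma genes (1723 RPM beside 5.67 to 84.2). 16-week HFD replicate 10 stood apart in granulosa markers (697 RPM beside 1358 to 1721), oviduct markers (406 RPM beside 4.24 to 90.9) and red blood cell genes (134 RPM beside 0 to 33.5). 4-week HFD replicate 5 held 412 RPM of oocyte genes (beside 0.648 to 4.82), and 4-week CD replicate 8 held 4.92 RPM of red blood cell genes (beside 0.454 to 1.57). The groups of 3, 16 C and the low weight gainers, were not screened. Low weight gainer replicate 22 held 253 RPM of oviduct markers (beside 10.4 and 18.5) and 79.2 RPM of red blood cell genes (beside 4.15 and 16.2).

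The diet effect differed between 16 and 4 weeks for 4 genes of the pathway list, by edgeR's test of the difference itself. Adamts9 differed by 1.83 (adjusted p = 0.0249), with a change of -1.37 at 4 weeks and 0.40 at 16 weeks. Slco2a1 differed by -2.42 (adjusted p = 0.0346), Hpgd by -2.19 (adjusted p = 0.0386) and Chpf, a chondroitin polymerizing factor, by -2.40 (adjusted p = 0.0439). Without 16-week CD replicates 1 and 2, 0 of the list passed.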

How the results depend on the processing

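Counts of calls are given as all genes, then members, then pathway list genes, where they moved by over 1.5 times, and the cause was not tested. In 16 L against 16 C they were 1004, 0 and 5. They became 2628, 1 and 14 with DESeq2, 7474, 1 and 39 with limma-voom, and 4384, 1 and 22 in the fit of all 34 libraries. Library totals gave 4035 genes and 16 list genes, no filter 504 and 2, and at least 10 counts in every library 3 list genes. Leaving out single libraries gave 30 to 4635, 0 to 1 and 0 to 25, and leaving out 16 L replicates 18 and 21 gave 4145, 2 and 24. In 4-week HFD against CD (499, 0 and 3), DESeq2 gave 1285 and 8 list genes, limma-voom 4052 and 29, the fit of all 34 libraries 69 and 0, library totals 7 list genes, and single libraries left out 8 to 1700 and 0 to 9. In 16-week HFD against CD (3, 0 and 0), DESeq2 gave 1056, 1 and 10, library totals 1646, 1 and 14, and the fit of all 34 libraries 1258 and 11 list genes. limma-voom gave 5 genes, no filter 13, at least 10 counts 0, leaving out CD replicates 1 and 2 gave 1, and single libraries left out 1 to 2222, 0 to 1 and 0 to 19.

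In low weight gainers against 16-week HFD (2330, 2 and 13), library totals gave 1 member, the fit of all 34 libraries 487, 0 and 4, and single libraries left out 596 to 2732, 1 to 2 and 3 to 17. Against 16-week CD (1, 0 and 0), DESeq2 gave 245, 1 and 3, limma-voom 214, 2 and 1, library totals and at least 10 counts 0 genes, the fit of all 34 libraries 7, single libraries left out 0 to 1, and leaving out CD replicates 1 and 2 gave 3. For the leptin minus the diet effect (3521, 1 and 17), limma-voom gave 7885, 2 and 40, library totals 5912 genes and 0 members, at least 10 counts 2051 and 11 list genes, leaving out 16 L replicate 18 gave 5542 and 31 list genes, and leaving out replicates 18 and 21 gave 28 list genes. For the diet effect at 16 minus 4 weeks (448, 0 and 4), DESeq2 gave 1165 and 8 list genes, limma-voom 2289 and 14, library totals 873 and 7, the fit of all 34 libraries 157 and 1, at least 10 counts 2 list genes, and leaving out CD replicates 1 and 2 gave 89 and 0.

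Replicate numbers recur between the 4-week and 16-week groups, and deviations of libraries of the same number had r from -0.251 to 0.129. With 2 libraries per number, these values cannot show whether they share more than the number. With the replicate block the diet effect at 16 minus 4 weeks gave 10 genes and 0 list genes, beside 448 and 4 without it. Vcan was then at -0.30 and Hapln1 at 0.0023.

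Log2 changes that turned sign were all short of the threshold. With library totals, Has2, Ptx3 and Vcan were at 0.67, 0.91 and 0.42 in 16 L, Vcan at -0.16 in 16-week HFD, Tnfaip6 and Vcan at -0.045 and -0.27 for 16 minus 4 weeks, and Has2, Ptx3, Ptgs2 and Vcan at 0.39, 0.89, 0.98 and 0.31 for leptin minus diet. With limma-voom, Ptgs2 was at -0.52 in 4-week HFD and 0.63 for leptin minus diet, Tnfaip6 at 0.053 in low weight gainers against CD, and Has2, Vcan and Hapln1 at 0.051, -0.079 and 0.65 for 16 minus 4 weeks. Without a filter Tnfaip6 was at -0.024 there, and at -0.35 without CD replicates 1 and 2. Without 16 L replicates 18 and 21, Has2, Ptx3 and Vcan were at 0.51, 0.71 and 0.0021 in 16 L, and Ptx3 and Ptgs2 at 0.42 and 0.48 for leptin minus diet (0.033 and 0.19 without replicate 18). Leaving out single libraries gave -0.34 to 0.068 for Has2, -0.997 to 0.25 for Ptx3, -0.18 to 0.36 for Ptgs2 and -0.47 to 0.14 for Hapln1 in 16 L. In 4-week HFD it gave -0.20 to 0.32 for Ptx3, -0.19 to 0.51 for Ptgs2 and -0.33 to 0.41 for Has2 (-0.35 with log2(RPM + 0.1)), and in low weight gainers against CD -0.55 to 0.50 for Tnfaip6. Has2 and Hapln1 rest on 611 and 294 reads over 34 libraries, which limits what can be detected for them.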
